A study of Saccharomyces cerevisiae with 15 samples.

Results

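The autophagy-related (ATG) genes of the budding yeast Saccharomyces cerevisiae were followed in dense and light cells of day 3 cultures and in light cells without functional mitochondrial DNA. Members were chosen by name: a probe set had to be annotated to an S. cerevisiae gene whose symbol is ATG followed by a number. This gave 34 of the 5449 S. cerevisiae genes measured, each read by 1 probe set. The RefSeq gene table names 37 such genes, and ATG42, ATG44 and ATG45 were not analysed here. By assigned role the members were sorted into 22 core machinery genes, 10 genes for selective receptors and mitophagy, and 2 for vacuolar breakdown. The selective genes as assigned include ATG20, for a sorting nexin, and ATG26, for a sterol glucosyltransferase. Both the name rule and the sorting were set with earlier results of these data known.

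The study compared 3 groups of 5 biological replicates, 15 samples in all, on Affymetrix Yeast Genome 2.0 arrays. All cells had the BY4741 background, a haploid a-type laboratory strain that carries deletions in HIS3, LEU2, MET17 and URA3, and grew untreated and shaken at 30 °C for 3 days in rich YPD medium with 2% glucose. WT high density and WT low density are the heavy and the light Percoll fractions of the wild type, and Rho0 low density is the light fraction of a Rho0 derivative, whose cells lack mitochondrial DNA and cannot respire. The labels do not say how the derivative was made, whether it was 1 clone, or whether heavy and light fractions came from the same cultures, and no heavy Rho0 fraction was among the samples.

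Autophagy encloses cytoplasm or chosen cargo in a double-membrane vesicle, the autophagosome, which fuses with the vacuole so that hydrolases can break its content down. The Atg1 kinase complex starts the process, a phosphatidylinositol kinase complex and Atg9 vesicles build the membrane, and a pair of ubiquitin-like systems attach Atg8 to it. Receptors such as Atg32 for mitochondria, Atg39 and Atg40 for the endoplasmic reticulum and Atg19 for vacuolar enzymes tie cargo to Atg8. In yeast, mitophagy is known to be induced when cells that respire enter stationary phase.

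Values are log2 signals after RMA, so a difference of 1 is a 2-fold change against the rest of the array. A background level of 2.56 lies above 95% of the means of the S. pombe probe sets, which have no target in these cells. Of the 34 members 31 had a mean above it in at least 1 group, and ATG23, ATG29 and ATG38 did not. The 17 S. pombe probe sets for atg genes averaged between 1.85 and 2.49, so that 0 of them passed that level. In bulk RNA, fewer cells with a transcript cannot be told apart from less of it per cell.

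Of the deleted genes, HIS3 and LEU2 read above background in every group and URA3 and MET17 in none. All 7 a-specific genes were above it in both light groups and 6 in WT high density. They averaged 6.27 to 6.51 per array in the dense wild type, 7.22 to 7.42 in the light wild type and 7.03 to 7.38 in Rho0. The 4 alpha-specific genes averaged 5.48 to 5.94 per array in the dense wild type, 4.42 to 4.85 in the light wild type and 4.28 to 4.55 in Rho0. Of them 4, 3 and 3 were above background, and the alpha-specific SAG1 averaged 10.27, 8.97 and 9.34. The 8 sporulation genes averaged 4.69 to 4.93, 3.36 to 3.56 and 3.92 to 4.05 in the same order of groups, with 6, 4 and 7 above background. None of the 8 genes on mitochondrial DNA looked for was named in the annotation, so the Rho0 label was not checked. The 5′ probe set of 25S ribosomal RNA, which bears on RNA quality, read 7.87 ± 0.13, 11.36 ± 0.45 and 7.75 ± 0.27, again in that order (mean ± SD, n = 5). Its middle probe set read 10.99 ± 0.32, 14.17 ± 0.04 and 13.28 ± 0.15, and its 3′ probe set 13.94 ± 0.14, 14.16 ± 0.02 and 14.24 ± 0.02. For the ACT1 mRNA the 3′ minus 5′ difference was 1.57 ± 0.14, 1.90 ± 0.12 and 1.61 ± 0.06, largest in WT low density. The poly-A spike-in controls averaged 10.11 ± 0.20, 10.34 ± 0.24 and 9.66 ± 0.24. The part of these differences in the results below was not tested. Rho0 low density replicate 1 stood apart from its group for ATG3, ATG8 and ATG39.

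The first comparison asked how light and dense wild-type cells differ. Relative to the other transcripts, WT low density cells held less ATG10 and ATG7 mRNA, for conjugation enzymes of the ubiquitin-like systems, less ATG1 and less of the mitophagy genes ATG32 and ATG33 than WT high density cells. They held more of ATG8 itself, of the endoplasmic reticulum receptor genes ATG39 and ATG40 and of the vacuolar lipase gene ATG15. With arrays shifted to the poly-A controls, the rises of ATG8 and ATG40 did not pass. In all, 18 of 34 ATG genes fell and 9 rose at an adjusted p under 0.05 (limma, Benjamini-Hochberg over all 5449 genes), with a median log2 fold change of -0.43. Among all genes 41.1% fell and 26.2% rose, with a median of -0.17, against 52.9% and 26.5% of the ATG genes. The share of ATG genes that rose is thus that of the whole array under this scaling. Quantile normalization of the S. cerevisiae genes gave 14 falls and 10 rises, and arrays shifted to the S. cerevisiae median 16 and 12. The S. pombe median shift gave 19 and 8, and the poly-A shift 19 and 5. Falls and rises of all genes were then 1792 and 1774, 1896 and 1659, 2462 and 1295, and 2462 and 880. At least 2-fold changes were 8 falls and 2 rises, against 16.3% and 11.7% of all genes. Relative to the median of all genes, 20 members lay below and 14 above, and the split was the same after quantile normalization. Shifts of whole arrays move every gene alike, so they cannot change this split.

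The second comparison set light cells without mitochondrial DNA against light wild-type cells. Rho0 cells held relatively less mRNA of the receptor genes ATG39, ATG19, ATG40 and ATG32, of ATG1 and of ATG15, and more of ATG21, ATG14, ATG17 and ATG34. With arrays shifted to the poly-A controls, the falls of ATG19, ATG40 and ATG32 did not pass. Of the 34 genes 10 fell and 9 rose, with a median of 0.09, whereas 22.7% of all genes fell and 44.6% rose, with a median of 0.25. Changes of at least 2-fold were 5 falls and 4 rises, against 10.1% and 17.7% of all genes. Which side was larger depended on the scaling: 9 fell and 9 rose with arrays shifted to the S. pombe median, 15 fell and 5 rose with arrays shifted to the S. cerevisiae median, 12 fell and 6 rose when the S. cerevisiae genes were quantile normalized, and 4 fell and 22 rose with arrays shifted to the poly-A spike-in controls. The median of all genes under these scalings was 0.35, -0.01, 0.06 and 0.94. Relative to the median of all genes 24 of 34 members lay below, and 20 did after quantile normalization. The shifts of whole arrays again cannot change this number.

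**Figure D1:**
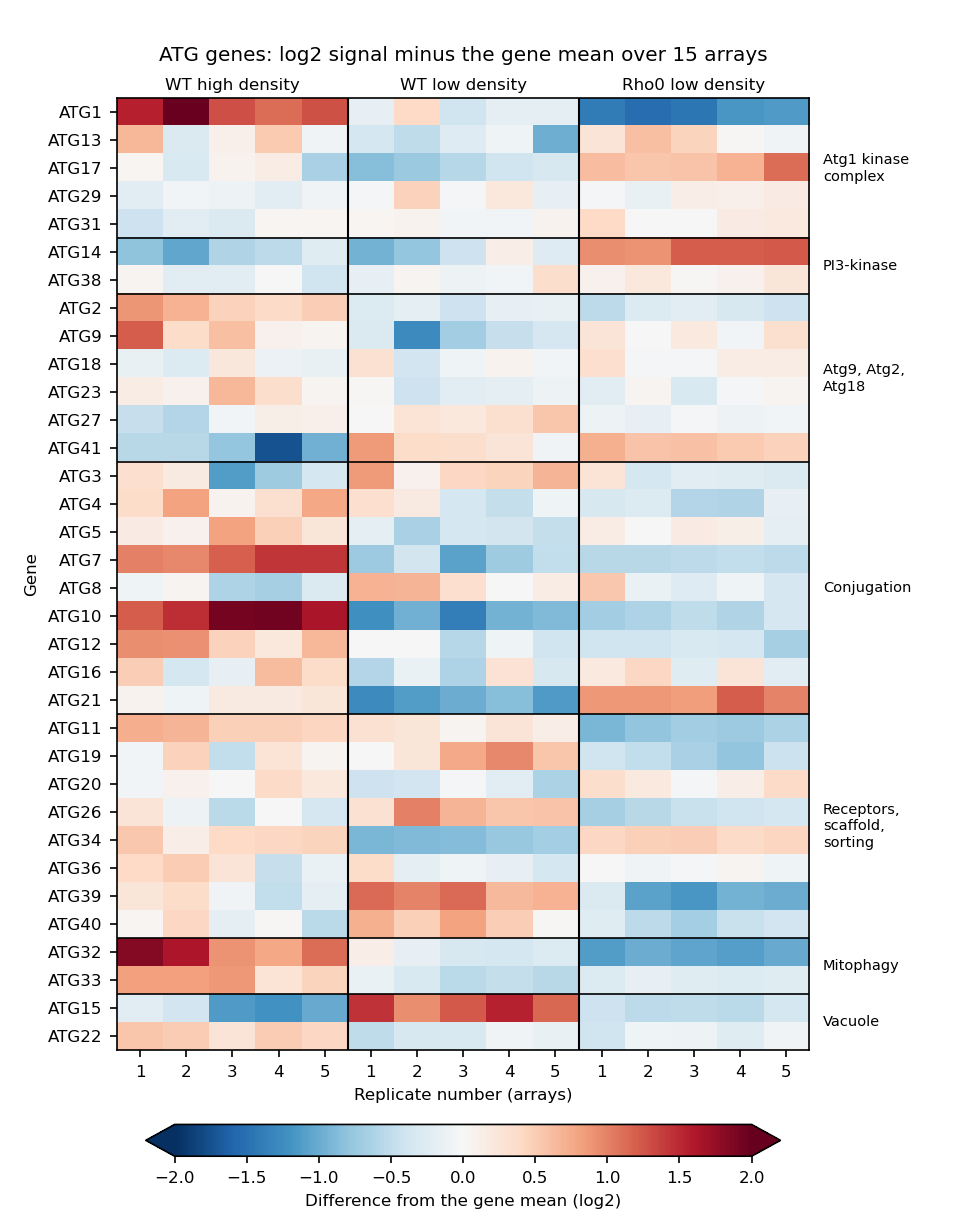
Log2 signal of each of 34 ATG genes (rows, by role) on each of 15 arrays (columns, by group and replicate number) minus the mean of the gene over the 15 arrays. ATG1, ATG7, ATG10 and ATG32 are highest on the 5 WT high density arrays, ATG15, ATG26 and ATG39 on the WT low density arrays, and ATG14, ATG17 and ATG21 on the Rho0 low density arrays.

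Core machinery genes showed 12 falls and 4 rises among 22 genes in the first comparison, with a median of -0.45, against 41.1% and 26.2% of all genes. They showed 9 falls and 5 rises after quantile normalization (median -0.20). With arrays shifted to the S. cerevisiae median they showed 11 and 7, and with the poly-A shift 13 and 2. Among all genes falls and rises were then 1792 and 1774, 1896 and 1659, and 2462 and 880. In the second comparison the core genes rose in 7 and fell in 3 cases, with a median of 0.15, against 44.6% and 22.7% of all genes. The split evened out at 5 and 5 after quantile normalization, turned to 8 falls and 4 rises with arrays shifted to the S. cerevisiae median, and widened to 17 rises and 1 fall with the poly-A shift. Rises and falls of all 5449 genes under these scalings were 1875 and 1574, 1728 and 1775, and 3955 and 464. Selective receptor and mitophagy genes showed 5 falls and 4 rises among 10 genes in the first comparison (4 and 4 after quantile normalization or with arrays shifted to the S. cerevisiae median). In the second, 6 fell and 2 rose, with a median of -0.90, but 2 fell and 4 rose with arrays shifted to the poly-A controls. Relative to the median of all genes, 8 of the 10 selective genes and 14 of the 22 core genes lay below in the second comparison, and 6 and 13 after quantile normalization. The difference between these groups of genes was not tested.

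**Figure D2:**
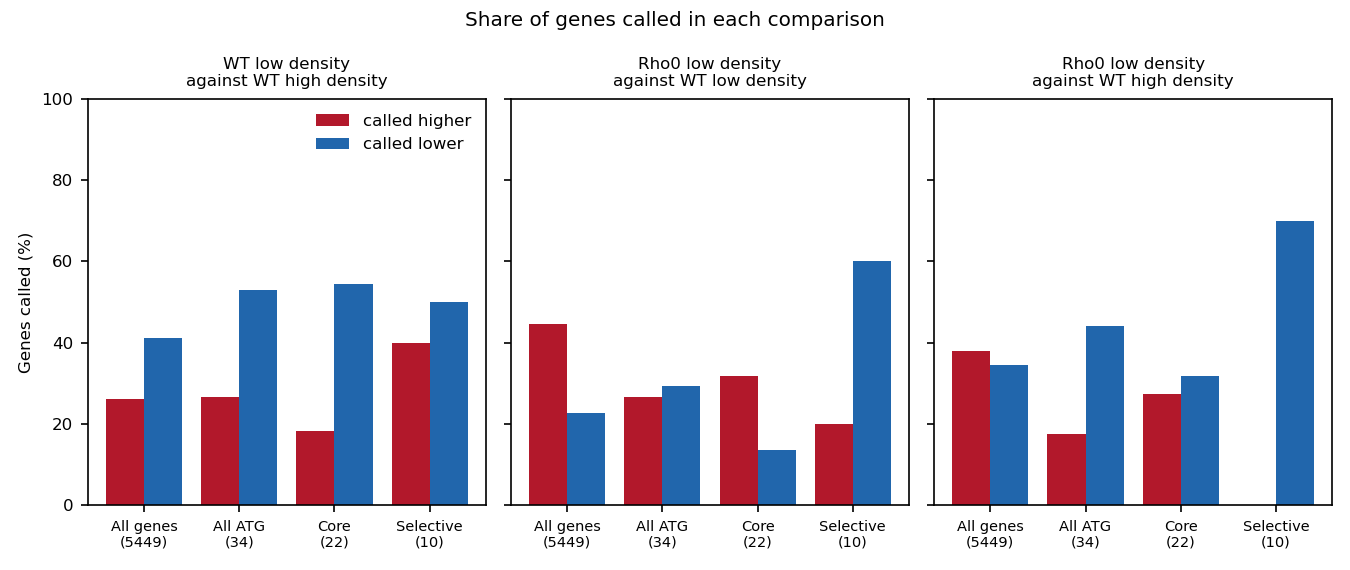
Percentage of genes called higher (red) and lower (blue) at an adjusted p under 0.05 in 3 comparisons, for all 5449 genes, all 34 ATG genes, the 22 core genes and the 10 selective genes. Under this scaling selective genes were called lower in 60% and higher in 20% of cases in Rho0 against WT low density, a split that turned with arrays shifted to the poly-A controls. With that shift 464 of the 5449 genes were called lower and 3955 higher.

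Within the Atg1 complex, the kinase gene fell in both comparisons, whereas ATG13 and ATG17 were called lower in the first and higher in the second. ATG1 (YGL180W), for the kinase that starts autophagosome formation, read 8.34, 8.76, 8.07, 7.89 and 8.06 in dense wild-type cells, 6.61, 7.17, 6.38, 6.59 and 6.58 in light wild-type cells, and 5.38, 5.25, 5.34, 5.61 and 5.65 in light Rho0 cells. The 3 groups did not overlap. ATG1 fell by 1.56 ± 0.17 log2 (difference ± SE) in WT low against WT high density, or 2.94-fold (adjusted p = 1.69e-07), and was 2.33-fold lower again in Rho0 (adjusted p = 3.59e-06). ATG17 (YLR423C), for the scaffold of the bulk autophagy complex, read 3.23, 2.90, 3.27, 3.36 and 2.55 in dense wild-type cells, 2.36, 2.46, 2.64, 2.81 and 2.88 in light wild-type cells, and 3.82, 3.76, 3.77, 3.89 and 4.31 in light Rho0 cells. The wild-type groups overlapped near background, and all Rho0 values lay above both. ATG17 rose 2.43-fold in Rho0 against WT low density (adjusted p = 1.27e-06). Its fall in the first comparison (-0.43 ± 0.16, adjusted p = 0.0244) did not pass when any 1 of 5 arrays was left out (WT high density replicates 1, 3 and 4 and WT low density replicates 1 and 2; -0.39 to -0.36), nor after quantile normalization (-0.03).

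ATG13, for the regulatory subunit that TOR signalling keeps phosphorylated, averaged 3.22 ± 0.40 in dense and 2.60 ± 0.34 in light wild-type cells and 3.29 ± 0.28 in Rho0 cells (SD, n = 5). It fell by 0.62 ± 0.20 and then rose by 0.69 ± 0.20 log2, and quantile normalization ended both calls (-0.23 and 0.38), and the S. cerevisiae median shift the second (0.42). ATG31 (6.48 ± 0.20, 6.66 ± 0.06 and 6.81 ± 0.16) and ATG29 (2.30 ± 0.08, 2.52 ± 0.25 and 2.47 ± 0.13, all under background), for the other parts of the scaffold, did not pass in either comparison. ATG31 was called higher in the first with the S. cerevisiae median shift (0.31) and in the second with the poly-A shift (0.83), and ATG29 higher in the first after quantile normalization (0.52) and with the S. cerevisiae median shift (0.34). In the second, ATG29 was called lower with the S. cerevisiae median shift (-0.31) and higher with the poly-A shift (0.63). The 95% confidence interval of the change in ATG31 was -0.06 to 0.43 in the first comparison and -0.10 to 0.39 in the second.

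In the complex that makes phosphatidylinositol 3-phosphate, ATG14 rose in Rho0 cells. ATG14 (YBR128C), for the subunit that directs this lipid kinase to the site of autophagosome formation, read 6.31, 6.07, 6.51, 6.60 and 6.87 in dense wild-type cells, 6.17, 6.35, 6.71, 7.26 and 6.86 in light wild-type cells, and 8.06, 8.02, 8.34, 8.33 and 8.35 in light Rho0 cells. All Rho0 values exceeded all wild-type values, and the wild-type fractions overlapped. ATG14 rose 2.92-fold in Rho0 against WT low density (1.55 ± 0.18, adjusted p = 5.77e-07). Its difference between the wild-type fractions had an interval of -0.19 to 0.58. ATG38, for a linker of this complex, stayed under background in every group (2.02, 2.20 and 2.31). The remaining subunits carry other symbols: VPS30 fell by 0.92 ± 0.11 in the first comparison and rose by 1.80 ± 0.11 in the second, and VPS34, the catalytic subunit gene, fell 3.15-fold in the first (adjusted p = 7.88e-08) and stood at 0.09 ± 0.17 in the second.

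Of the genes for membrane supply, those for lipid transfer and the Atg9 vesicle itself fell in light wild-type cells. ATG9, for the lipid scramblase of the vesicles, averaged 5.85 ± 0.47, 4.78 ± 0.40 and 5.53 ± 0.16 in WT high density, WT low density and Rho0 low density. It fell 2.11-fold (adjusted p = 0.000168) and rose 1.69-fold in Rho0 (adjusted p = 0.00367; adjusted p = 0.0724 after quantile normalization). ATG2, for the protein that transfers lipids into the growing membrane, fell from 8.96 ± 0.20 to 8.15 ± 0.11 (adjusted p = 5.45e-06). In Rho0 it stood at 8.03 ± 0.13, and the interval of its change from WT low density was -0.36 to 0.13. ATG2 was called lower there with the S. cerevisiae median shift (-0.38) and higher with the poly-A shift (0.57). ATG41, for an Atg9-binding protein, moved the other way: it rose 2.41-fold from 8.85 ± 0.49 to 10.12 ± 0.33 (adjusted p = 1.67e-05) and read 10.34 ± 0.09 in Rho0 (0.22 ± 0.20 against WT low density, not called).

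ATG27, for a membrane protein of Atg9 traffic, rose by 0.45 ± 0.14 from 7.62 ± 0.33 to 8.07 ± 0.20, and fell by 0.36 ± 0.14 in Rho0. The rise did not pass after quantile normalization (0.33) or with the poly-A shift (0.22). The fall did not pass when any 1 of 6 arrays was left out (WT low density replicates 2, 4 and 5 and Rho0 replicates 1, 2 and 4; -0.36 to -0.29), nor with the S. pombe shift (-0.26), and turned to 0.32 with the poly-A shift. ATG18, for the lipid-binding partner of Atg2, was called in none of the 3 comparisons, with means of 5.86, 5.92 and 6.07. Its intervals were -0.22 to 0.34 and -0.13 to 0.43, and it was called higher in Rho0 than in either wild-type group with the poly-A shift (0.83 and 0.66). ATG23, another factor of Atg9 traffic, lay under background at 2.40, 1.97 and 2.06, where its fall in the first comparison (-0.43 ± 0.13, -0.22 and not called after quantile normalization) has no interpretable size.

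The conjugation enzymes held the largest falls of all ATG genes in the first comparison. ATG10 (YLL042C), for the E2-like enzyme that joins Atg12 to Atg5, read 8.86, 9.13, 9.57, 9.59 and 9.29 in dense wild-type cells, 6.42, 6.68, 6.26, 6.70 and 6.77 in light wild-type cells, and 6.96, 7.03, 7.14, 7.04 and 7.32 in light Rho0 cells. The 3 groups did not overlap, with the dense cells far above both light groups. ATG10 fell 6.58-fold (-2.72 ± 0.15, adjusted p = 2.08e-11) and was 1.44-fold higher in Rho0 than in WT low density (adjusted p = 0.00361; adjusted p = 0.12 with the S. cerevisiae median shift). ATG7 (YHR171W), for the E1-like enzyme that activates both Atg12 and Atg8, read 8.49, 8.43, 8.66, 8.90 and 8.91 in dense wild-type cells, 6.74, 7.10, 6.41, 6.76 and 6.98 in light wild-type cells, and 6.92, 6.92, 6.95, 6.98 and 6.95 in light Rho0 cells. Dense cells again lay above both light groups, which overlapped. ATG7 fell 3.68-fold (adjusted p = 7.35e-10), and its change in Rho0 had an interval of -0.14 to 0.43.

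In the first comparison ATG8 and ATG3, for its own E2-like enzyme, rose, while 6 of the 9 conjugation genes fell. Among all genes 26.2% rose and 41.1% fell. ATG8 (YBL078C), for the ubiquitin-like protein on the autophagosome membrane, read 9.70, 9.84, 9.17, 9.11 and 9.49 in dense wild-type cells, 10.48, 10.46, 10.12, 9.79 and 9.93 in light wild-type cells, and 10.32, 9.65, 9.52, 9.70 and 9.45 in light Rho0 cells. The groups overlapped in both comparisons. ATG8 rose 1.62-fold in WT low density (0.69 ± 0.19, adjusted p = 0.00309; adjusted p = 0.108 with the poly-A shift). In Rho0 it stood at -0.43 ± 0.19 (adjusted p = 0.0507), and this passed when any 1 of 6 arrays was left out: Rho0 replicate 1 (-0.58, adjusted p = 0.00782), WT low density replicates 4 and 5 and WT high density replicates 1, 2 and 4. It also passed with the S. cerevisiae median shift (-0.69). ATG3, the E2-like enzyme gene for Atg8, rose by 0.83 ± 0.23 from 5.90 ± 0.60 to 6.73 ± 0.29 and fell by 0.65 ± 0.23 in Rho0 (adjusted p = 0.0171; 0.03 log2 with the poly-A shift).

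**Figure D3:**
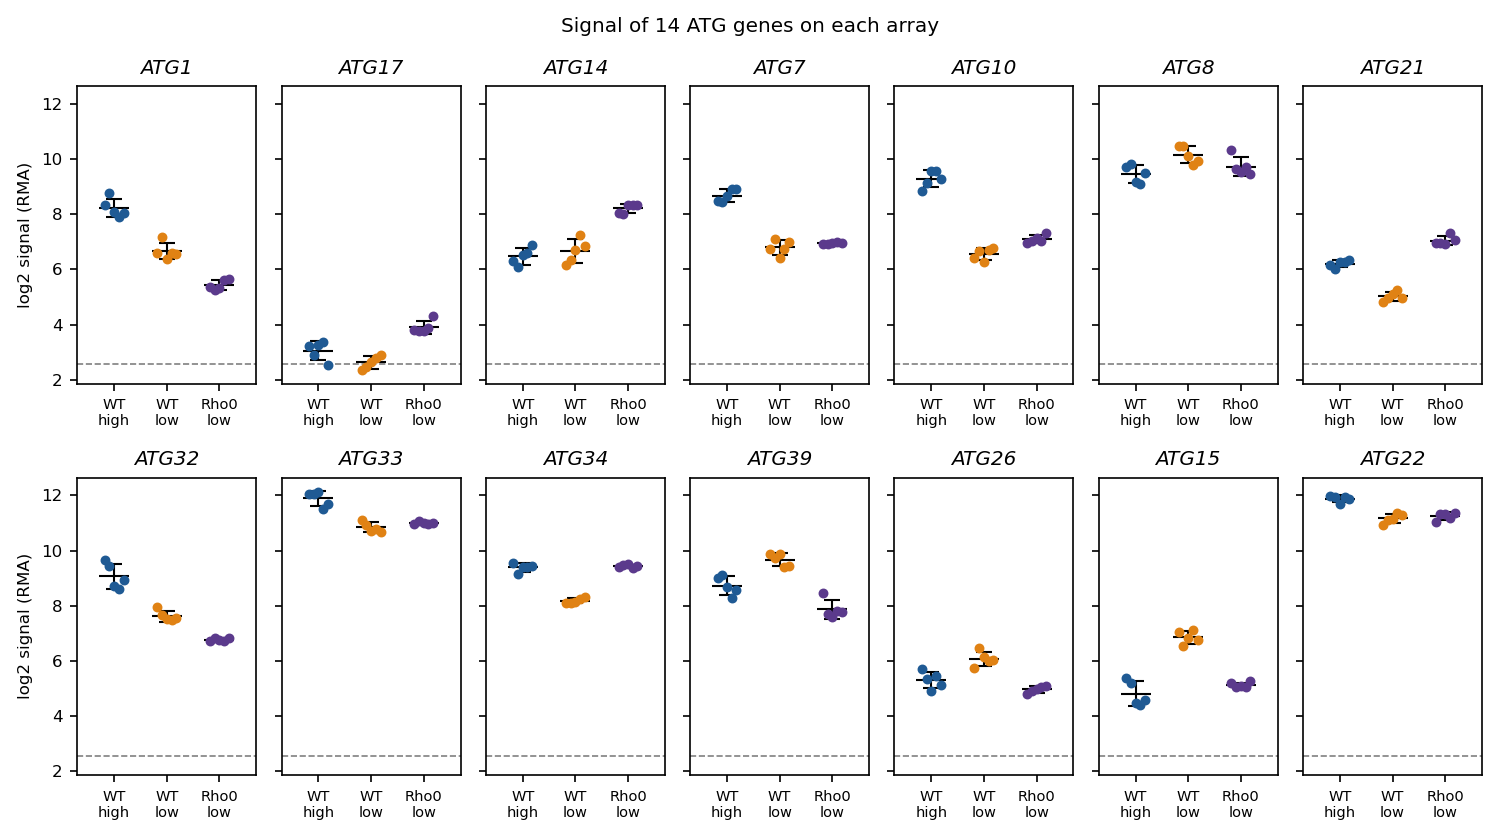
Log2 signal on each of the 5 arrays per group (points) with mean and SD (bars) for 14 ATG genes, those named by the rule in the methods. The dashed line is the background level of 2.56. ATG1 and ATG32 step down from WT high to WT low to Rho0 low density, ATG34 is low in WT low density only, and ATG15 is high there only.

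Of the genes of the Atg12, Atg5 and Atg16 ligase, ATG5 and ATG12 fell in the first comparison. ATG5 fell from 8.09 ± 0.29 to 7.32 ± 0.17 (adjusted p = 8.94e-05) and rose by 0.45 ± 0.14 in Rho0 (0.19 with the S. cerevisiae median shift, adjusted p = 0.234). ATG12 fell 1.80-fold from 5.38 ± 0.31 to 4.53 ± 0.26 (adjusted p = 7.4e-05), and read 4.33 ± 0.14 in Rho0 (-0.21 ± 0.15, not called). It was called lower there after quantile normalization (-0.55) and with the S. cerevisiae median shift (-0.47), and higher with the poly-A shift (0.48). ATG16 read close to background in every group (2.71, 2.24 and 2.59) and was not called. ATG4, for the protease that matures Atg8 and releases it from the membrane, fell by 0.55 ± 0.17 from 6.53 to 5.98 and stood at 5.67 in Rho0 (-0.31 ± 0.17, not called). It was called lower there without WT low density replicate 4 (-0.41), after quantile normalization (-0.56) and with the S. cerevisiae median shift (-0.57).

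ATG21 (YPL100W), for a lipid-binding protein that brings the Atg8 system to the membrane, showed the largest rise of all ATG genes in Rho0. It read 6.16, 6.01, 6.27, 6.27 and 6.34 in dense wild-type cells, 4.83, 4.98, 5.10, 5.24 and 4.97 in light wild-type cells, and 6.96, 6.97, 6.93, 7.31 and 7.08 in light Rho0 cells. No group overlapped another. ATG21 fell 2.28-fold in the first comparison (adjusted p = 3.7e-08) and rose 4.08-fold in the second (2.03 ± 0.11, adjusted p = 2.92e-11).

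**Figure D4:**
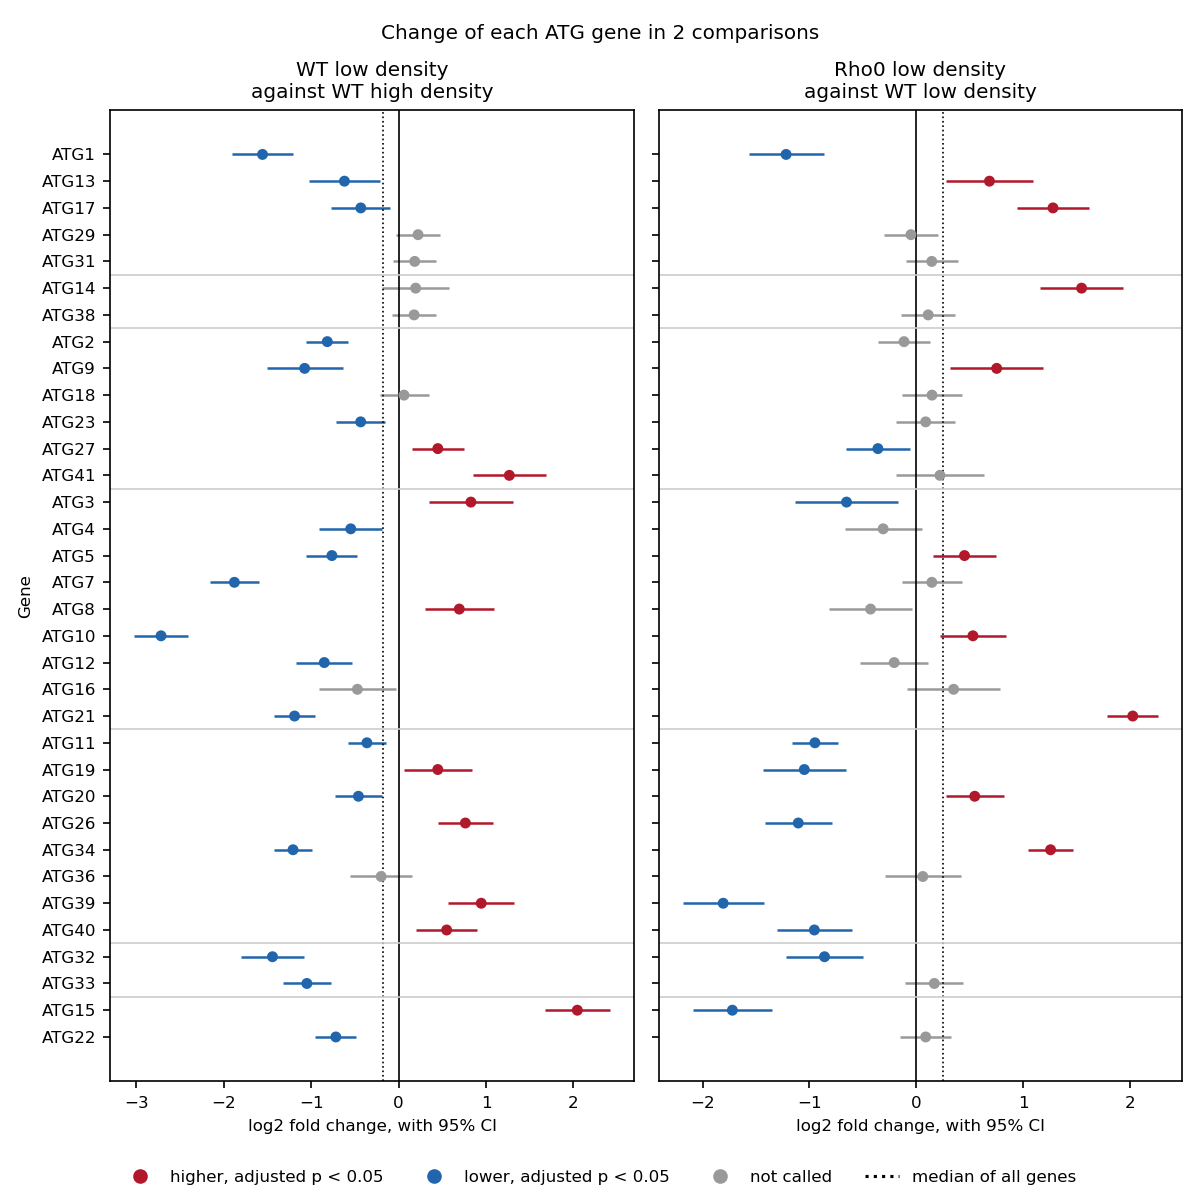
Log2 fold change of each of 34 ATG genes with its 95% confidence interval in WT low against WT high density (left) and Rho0 low against WT low density (right), grouped by role, with red for called higher, blue for called lower and grey for not called. The dotted line is the median of all 5449 genes (-0.17 and 0.25). ATG10 is farthest to the left at -2.72, and ATG21 farthest to the right in Rho0 at 2.03.

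Both mitophagy genes fell in light wild-type cells. ATG32 (YIL146C), for the receptor on the mitochondrial outer membrane, read 9.66, 9.44, 8.73, 8.60 and 8.94 in dense wild-type cells, 7.96, 7.65, 7.51, 7.47 and 7.55 in light wild-type cells, and 6.71, 6.84, 6.76, 6.72 and 6.82 in light Rho0 cells. The groups did not overlap and stepped down in that order. ATG32 fell 2.72-fold in the first comparison (-1.44 ± 0.17, adjusted p = 6.36e-07) and 1.81-fold in the second (-0.86 ± 0.17, adjusted p = 0.000228). The second call was lost with arrays shifted to the poly-A controls (-0.18, adjusted p = 0.424). ATG33 (YLR356W), for an outer membrane protein known to act in mitophagy of stationary cells, read 12.07, 12.06, 12.12, 11.52 and 11.68 in dense wild-type cells, 11.11, 10.94, 10.70, 10.77 and 10.68 in light wild-type cells, and 10.98, 11.08, 11.01, 10.97 and 11.01 in light Rho0 cells. Dense cells lay above both light groups, which overlapped. ATG33 fell 2.07-fold (adjusted p = 9.78e-07), and its change in Rho0 had an interval of -0.10 to 0.44.

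The receptor genes for the endoplasmic reticulum were highest in light wild-type cells. ATG39 (YLR312C), for the receptor of the perinuclear part, read 8.99, 9.12, 8.69, 8.27 and 8.58 in dense wild-type cells, 9.89, 9.75, 9.89, 9.41 and 9.45 in light wild-type cells, and 8.47, 7.69, 7.59, 7.81 and 7.77 in light Rho0 cells. All WT low density values exceeded those of both other groups. ATG39 rose 1.93-fold (adjusted p = 0.000151) and fell 3.50-fold in Rho0 (-1.81 ± 0.18, adjusted p = 6.55e-08). ATG40, for the receptor of the cortical and cytoplasmic parts, rose by 0.55 ± 0.17 from 6.92 ± 0.35 to 7.47 ± 0.30 and fell by 0.95 ± 0.17 to 6.51 ± 0.17 (adjusted p = 0.00756 and 6.33e-05). The poly-A shift ended both ATG40 calls (0.32 and -0.27).

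The genes for the paralogous receptors Atg19 and Atg34, which are neighbours in the genome, moved in opposite directions. ATG34 (YOL083W), for a receptor of alpha-mannosidase in starved cells, read 9.54, 9.14, 9.41, 9.42 and 9.46 in dense wild-type cells, 8.09, 8.12, 8.14, 8.25 and 8.32 in light wild-type cells, and 9.42, 9.48, 9.50, 9.38 and 9.44 in light Rho0 cells. WT low density lay below both other groups, which overlapped. ATG34 fell 2.31-fold (adjusted p = 6.93e-09) and rose 2.39-fold in Rho0 (adjusted p = 3.96e-09). ATG19, for the receptor of aminopeptidase I, averaged 5.65 ± 0.36, 6.10 ± 0.39 and 5.05 ± 0.16 in the same order. It fell 2.07-fold in Rho0 (adjusted p = 6.74e-05; adjusted p = 0.12 with the poly-A shift). Its rise in WT low density (0.45 ± 0.19, adjusted p = 0.0401) did not pass when any 1 of 6 arrays was left out (WT high density replicates 1, 3 and 5 and WT low density replicates 3, 4 and 5; 0.31 to 0.45), with only the 10 arrays compared, or with the S. pombe or poly-A shift (0.37 and 0.22).

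Genes for the cargo of these receptors are not members and stood beside them as follows. AMS1, the alpha-mannosidase gene, fell 3.56-fold in the first comparison and rose by 0.93 ± 0.18 in the second. APE1, the aminopeptidase I gene, rose in both, by 2.08 ± 0.18 and 1.64 ± 0.18 log2.

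Among the other selective genes, ATG26 (YLR189C), for a sterol glucosyltransferase, read 5.71, 5.35, 4.92, 5.46 and 5.12 in dense wild-type cells, 5.76, 6.46, 6.14, 6.01 and 6.02 in light wild-type cells, and 4.79, 4.90, 5.002, 5.06 and 5.10 in light Rho0 cells. WT low density lay above both other groups. ATG26 rose 1.70-fold (adjusted p = 0.000195) and fell 2.15-fold in Rho0 (adjusted p = 3.15e-06). ATG11, for the scaffold of selective autophagy, fell in both comparisons, from 9.75 ± 0.14 to 9.38 ± 0.10 and to 8.44 ± 0.11 in Rho0. Its first fall did not pass with the S. cerevisiae median shift (-0.24), and its second (adjusted p = 2.2e-07) not with the poly-A shift (-0.27). ATG20, for a sorting nexin, fell by 0.46 ± 0.13 and rose by 0.55 ± 0.13, from 3.82 to 3.36 to 3.91, and quantile normalization ended both calls (-0.03 and 0.14), and the S. cerevisiae median shift the second (0.28). ATG36, the receptor gene for peroxisomes, was called in none of the 3 comparisons, with means of 9.10, 8.91 and 8.97. Its intervals were -0.55 to 0.15 and -0.29 to 0.42, and it was called higher in the second comparison with the poly-A shift (0.74).

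The genes for breakdown and release in the vacuole moved apart. ATG15 (YCR068W), for the lipase that opens autophagic bodies, read 5.39, 5.21, 4.47, 4.39 and 4.60 in dense wild-type cells, 7.05, 6.53, 6.83, 7.14 and 6.75 in light wild-type cells, and 5.19, 5.07, 5.09, 5.07 and 5.26 in light Rho0 cells. WT low density lay above both other groups, which overlapped. ATG15 rose 4.13-fold (2.05 ± 0.18, adjusted p = 1.01e-08), the largest rise of the 34 genes in that comparison, and fell 3.30-fold in Rho0 (adjusted p = 9.56e-08). ATG22 (YCL038C), for a permease that exports amino acids from the vacuole, read 11.99, 11.94, 11.69, 11.95 and 11.85 in dense wild-type cells, 10.93, 11.11, 11.13, 11.37 and 11.28 in light wild-type cells, and 11.04, 11.34, 11.33, 11.19 and 11.37 in light Rho0 cells. Dense cells lay above both light groups, which overlapped. ATG22 fell 1.65-fold (adjusted p = 1.79e-05), and its change in Rho0 had an interval of -0.15 to 0.32.

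The third comparison, Rho0 low against WT high density, differs in both density and mitochondrial DNA and shares its arrays with the others. Of the 34 ATG genes 15 fell and 6 rose, whereas 34.4% of all genes fell and 37.9% rose. With arrays shifted to the poly-A controls the split turned to 7 falls and 14 rises, while 1022 of all 5449 genes fell and 2727 rose. Selective genes showed 7 falls and 0 rises among 10 genes (2 and 2 with the poly-A shift), and of the 22 core genes 7 fell and 6 rose (5 and 11 with that shift). At least 2-fold changes were 6 falls and 2 rises, against 17.8% and 20.4% of all genes. ATG1 was 6.85-fold lower (-2.78 ± 0.17, adjusted p = 2.86e-11), ATG32 4.93-fold (adjusted p = 5.89e-10), ATG10 4.56-fold and ATG7 3.33-fold. ATG11 fell by 1.31 ± 0.10 log2, ATG12 by 1.06 ± 0.15 and ATG2 by 0.93 ± 0.12. ATG14 was 3.35-fold higher (adjusted p = 7.46e-08) and ATG41 2.81-fold (adjusted p = 1.59e-06), and ATG17 and ATG21 rose by 0.85 ± 0.16 and 0.84 ± 0.11.

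Smaller falls in the third comparison were those of ATG33 (-0.88 ± 0.13), ATG39 (-0.86 ± 0.18), ATG4 (-0.86 ± 0.17), ATG22 (-0.63 ± 0.11) and ATG19 (-0.60 ± 0.19), which all lost their calls with the poly-A shift. ATG26 (-0.34 ± 0.15, adjusted p = 0.0491) did not pass when any 1 of 10 arrays was left out (-0.36 to -0.24; WT high density replicates 1, 2 and 4, WT low density replicates 3, 4 and 5 and Rho0 replicates 1 to 4). ATG40 (-0.40 ± 0.17, adjusted p = 0.0382) did not pass when any 1 of 6 was left out (-0.41 to -0.29; WT high density replicates 1, 2 and 4 and Rho0 replicates 2, 3 and 4). ATG31 rose by 0.33 ± 0.12, which did not pass after quantile normalization (0.17) or with the S. cerevisiae median shift (0.19). ATG23 (-0.35 ± 0.13) and ATG38 (0.29 ± 0.12) were called at levels under background. ATG23 did not pass without WT high density replicate 3 or 4 or Rho0 replicate 1 or 3 (-0.32 to -0.24), nor ATG38 without WT high density replicate 2, 3 or 5 or Rho0 replicate 2, 4 or 5 (0.23 to 0.30). ATG15 (0.32 ± 0.18) was not called but passed without WT high density replicate 1 (0.47) or 2 (0.42), and ATG5 (-0.31 ± 0.14, adjusted p = 0.0514) passed without WT high density or WT low density replicates 1 or 2 (-0.38 to -0.31). ATG3, ATG8, ATG9, ATG13, ATG16, ATG18, ATG20, ATG27, ATG29, ATG34 and ATG36 were not called. With the poly-A shift ATG3, ATG8, ATG18, ATG20, ATG27, ATG29 and ATG34 were called higher (0.50 to 0.72), and ATG9 was called lower after quantile normalization (-0.48) and with the S. cerevisiae median shift (-0.46).

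The spread between replicates was smallest in Rho0 cells. The median SD of the 34 genes was 0.31 log2 in dense wild-type, 0.24 in light wild-type and 0.15 in Rho0 cells, and that of all genes 0.28, 0.21 and 0.17. The widest spread was that of ATG3 in WT high density (SD 0.60, values from 5.13 to 6.58), and the narrowest that of ATG7 in Rho0 (0.03).

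Genes that work with the ATG proteins under other names were counted by 5 lists, of which 69 of 74 genes were measured. The lists were drawn up with earlier results on these samples known, so their counts are a description, and in the first comparison they stand against 41.1% of all genes called lower and 26.2% called higher. In the first comparison, 6 of the 8 core factors without an ATG symbol fell and 2 rose, with the largest falls in VPS34 and the sorting nexin gene SNX4 (-0.99 ± 0.17). Genes for fusion of the autophagosome with the vacuole showed 6 falls and 0 rises among 12 genes. CCZ1, for a subunit of the Ypt7 exchange factor, was at least 1.87-fold lower and VPS33, for a tethering subunit, 1.90-fold. Mitophagy factors showed 5 rises and 4 falls among 19 genes (5 and 6 with the S. pombe shift, 3 and 5 with the poly-A shift), with the stress kinase genes HOG1 and PBS2 in front at 4.09-fold and 3.04-fold. Cargo and hydrolase genes showed 6 rises and 3 falls among 11 genes, with APE1 and AMS1 the largest. Of 19 genes for nutrient and transcriptional regulators 8 fell and 6 rose (7 and 7 after quantile normalization). TOR2 fell 2.56-fold and KOG1, for a subunit of TOR complex 1, 2.32-fold.

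In the second comparison, the fusion genes showed 10 rises and 0 falls among 12 genes. The rises were 7 after quantile normalization, 8 with the S. cerevisiae median shift and 12 with the poly-A shift, each with 0 falls. MON1, for the partner of Ccz1, was up 4.70-fold and the tethering gene VPS41 at least 2.52-fold. Core factors showed 6 rises and 1 fall among 8 genes: VPS30 rose 3.49-fold and HRR25, for a casein kinase that phosphorylates receptors, fell 2.69-fold. Mitophagy factors showed 11 rises and 1 fall among 19 genes (8 and 3 after quantile normalization, 7 and 3 with the S. cerevisiae median shift, 17 and 0 with the poly-A shift), led by FAR8 (2.15 ± 0.13), for a subunit of the complex that counteracts Atg32 phosphorylation, and CKB1 (1.36 ± 0.11), for a subunit of casein kinase 2. Cargo and hydrolase genes showed 4 falls and 2 rises among 11 genes, which turned to 3 and 6 with the poly-A shift. PRB1, for vacuolar proteinase B, fell 3.17-fold, and APE1 rose 3.12-fold. Regulators showed 13 rises and 2 falls among 19 genes (9 and 5 after quantile normalization, 10 and 6 with the S. cerevisiae median shift), with SIN3 (1.10 ± 0.16), for a corepressor, and KOG1 (0.99 ± 0.13) in front. These rises stand against 44.6% of all genes called higher. Of the 5449 genes, 1875 were called higher after quantile normalization, 1728 with the S. cerevisiae median shift and 3955 with the poly-A shift. In Rho0 against WT high density, genes rose and fell in 6 and 2 cases for fusion, 3 and 2 for core factors, 9 and 2 for mitophagy factors, 3 and 4 for cargo and hydrolases (6 and 2 with the poly-A shift) and 7 and 4 for regulators, against 37.9% and 34.4% of all genes.

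**Figure D5:**
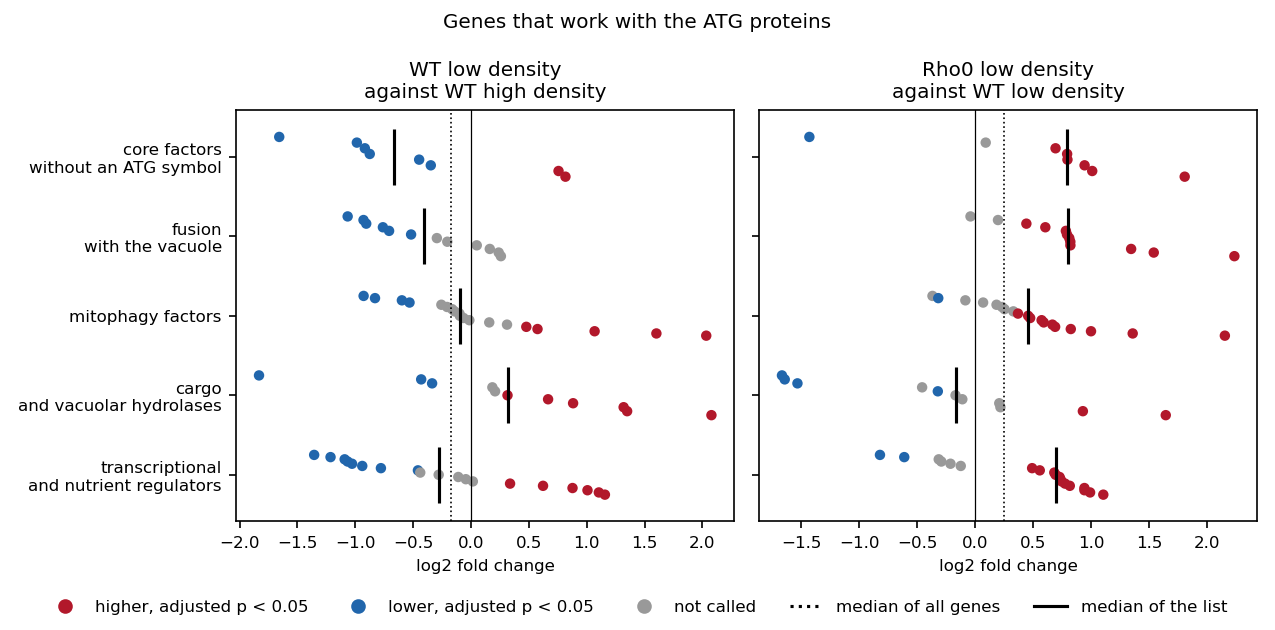
Log2 fold change of 69 genes that work with the ATG proteins, by list, in 2 comparisons. Red points were called higher, blue points lower and grey points not, the black bar is the median of the list and the dotted line the median of all genes. In Rho0 against WT low density the fusion genes lie from -0.04 to 2.23, with 10 of 12 called higher (7 after quantile normalization).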

How the data were processed

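RNA of 15 yeast samples was hybridised to Affymetrix Yeast Genome 2.0 arrays. Per the submitters' processing notes, the authors summarised the scans by RMA in Affymetrix Expression Console, and the deposited values are log2 signals for each of 10928 probe sets. RMA sets all arrays to 1 distribution, so a value is relative to the other probe sets of its array, and its precision is limited by the number of arrays. Genome coordinates and builds were not given in the sources used here.

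The platform annotation and the RefSeq R64 gene table separated S. cerevisiae from S. pombe probe sets and gave current symbols. Of several probe sets of a gene (47 genes) the one with the highest mean was kept, which left 5449 genes. The 3 groups, taken from the sample labels, entered 1 model without further covariates in limma 3.58.1 (R 4.3.3; lmFit and eBayes, two-sided, 12 residual degrees of freedom). A gene was called at a Benjamini-Hochberg adjusted p below 0.05 over all genes, and groups overlapped where their 5 values did. Folds are 2 to the power of the difference, and a lower mean under background was set to the background level and the fold written as at least. Every ATG gene is named. All values are printed for ATG1, ATG8, ATG32 and, per functional group, for the 3 called members with the largest change in each of the first 2 comparisons. Of each list of partner genes, the 2 called members with the largest change are named.

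The members, functional groups, partner lists and marker lists were chosen with earlier results of these data known. The alternatives were 4 other scalings, a fit of only the 10 arrays compared, a replicate block, a mean-variance trend with robust eBayes, genes above background only, the mean of probe sets, and leaving out each array. Promoter sequences were not analysed here. The limma fit was also run on simulated data with independent noise, few changed genes and no scaling difference between arrays. That run cannot bear on the calls that depend on scaling.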

Additional observations from a re-analysis of the deposited data

Results flagged for a closer look

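In 5 of 102 sets of 5 replicate values 1 sample lay far from the others of its group, about the 1 in 20 that chance gives. All 5 were in Rho0 low density, the group with the smallest spread. Replicate 1 was high for ATG3 at 6.52 (the others from 5.88 to 6.03), for ATG8 at 10.32 (9.45 to 9.70) and for ATG39 at 8.47 (7.59 to 7.81). Without it ATG8 was lower in Rho0 than in WT low density at -0.58 (limma adjusted p = 0.00782), against -0.43 (adjusted p = 0.0507) with it, and the calls of ATG3 and ATG39 in that comparison held. Replicate 5 was low for ATG12 at 4.09 (4.35 to 4.45) and high for ATG17 at 4.31 (3.76 to 3.89).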

How the results depend on the processing

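Of the calls on single ATG genes, 13 of 18 falls and 5 of 9 rises in WT low against WT high density held under every alternative that tested the gene, as did 4 of 10 falls (ATG1, ATG15, ATG26 and ATG39) and 4 of 9 rises (ATG14, ATG17, ATG21 and ATG34) in Rho0 against WT low density. In Rho0 against WT high density 7 of 15 falls and 4 of 6 rises did. The scaling of the arrays moved the counts most. With arrays shifted to the poly-A mean, ATG genes called higher were 5, 22 and 14 in the 3 comparisons, and those called lower 4 and 7 in the last 2. With the S. cerevisiae median 5 were called higher in the second. The poly-A shift also reversed ATG2 (0.57), ATG3 (0.0295), ATG12 (0.48), ATG27 (0.32) and ATG29 (0.63) in the second comparison, and ATG23 (0.11), ATG26 (0.11) and ATG40 (0.049) in the third. It also added rises of ATG7, ATG16, ATG22, ATG23, ATG33, ATG38 and ATG41 in the second (0.77 to 1.03). It moved the median of all genes to -0.40, 0.94 and 0.48. Over all genes, calls in Rho0 against WT low density went from 2430 higher and 1235 lower to 3955 and 464 with that shift, and to 1728 and 1775 with the S. cerevisiae median. The cause was not tested.

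Leaving out 1 array gave 8 to 9 rises and 17 to 19 falls in the first comparison, 9 to 10 and 9 to 11 in the second, and 5 to 7 and 12 to 16 in the third. ATG16 passed in the first when WT high density replicate 2 or 3 or WT low density replicate 4 was left out (-0.61 to -0.56), and in the second without WT low density replicate 4 (0.49). With the replicate number as a block, 9 rose and 19 fell, 9 rose and 12 fell, and 5 rose and 15 fell. The block added falls of ATG16 (adjusted p = 0.0256) in the first comparison, of ATG4 (adjusted p = 0.0391) and ATG8 (adjusted p = 0.01) in the second and of ATG5 (adjusted p = 0.0317) in the last, where it ended the calls of ATG26 (adjusted p = 0.0624) and ATG38 (adjusted p = 0.0529). Same-numbered arrays of different groups correlated at -0.053 to 0.367 after removing group means, with a median of 0.187 against -0.0275 for other pairs. Of these 15 pairs 8 lay over 0.1, against 10 of the 60 other pairs. The main fit did not take the numbers as pairs, because the labels do not say that they share a culture. Whether they do was not tested. ATG23, ATG29 and ATG38 were not tested among genes above background only. Near background, as for ATG13, ATG16 and ATG17, signal limits what can be measured.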
